A study of Mus musculus with 4 samples.

Results

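The cytochrome P450 genes are the 94 rows, of 43346 in the count table, whose gene name was Cyp followed by a family number, a subfamily letter and a member number. Cyp51, which carries no subfamily letter, and the named pseudogenes were left out by this rule, as were names with letters after the member number. Lung RNA was sequenced from 2 IL-33 transgenic mouse libraries, called B and E, and from 2 control libraries, called D and F. The genotype of B and E is given as IL-33 over-expression and that of D and F as control. The sources used here name no strain, age or sex of the animals, no promoter of the transgene and no pooling. The title of each sample names a mouse, but does not say whether the 2 libraries of a group came from different animals. The libraries of a group differed beyond sampling noise, and what makes up that spread is not given. Every p-value measures only the spread between these libraries. IL-33 is an epithelial cytokine of the interleukin-1 family that acts on innate lymphoid cells, T cells and mast cells. The comparison addresses which transcripts differ in lungs that over-express it.

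P450s are haem enzymes that insert an oxygen atom from molecular oxygen into a substrate. Most of those of the endoplasmic reticulum receive electrons from P450 oxidoreductase (Por) and cytochrome b5, and those of the mitochondria from ferredoxin. The enzymes of the first families oxidise drugs, hydrocarbons and other foreign compounds, and the others act mainly on fatty acids, retinoic acid, sterols, vitamin D and steroid hormones. In the mouse lung most of the oxidation of foreign compounds is placed in the club cells of the bronchioles, which is the reason why naphthalene injures those cells.

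The promoter windows of 4 members are printed because they belong to the 3 members with the most reads and to the standard target gene of the aryl hydrocarbon receptor. RefSeq windows of 250 bases before to 50 after the annotated start, on GRCm38.p6, were held for 73 of the 94 members, in 83 windows. Capitals mark matches, on either strand, to 3 short motifs: the dioxin response element TNGCGTG, the NK2 homeobox core TNAAGTG and the TATA box TATAAA. The window of Cyp2f2 lies at chr7:27119705-27120004 on the plus strand, that of Cyp2s1 at chr7:25816476-25816775 on the minus strand, that of Cyp4b1 at chr4:115647672-115647971 on the minus strand, and that of Cyp1a1 at chr9:57697363-57697662 on the plus strand.
Cyp2f2: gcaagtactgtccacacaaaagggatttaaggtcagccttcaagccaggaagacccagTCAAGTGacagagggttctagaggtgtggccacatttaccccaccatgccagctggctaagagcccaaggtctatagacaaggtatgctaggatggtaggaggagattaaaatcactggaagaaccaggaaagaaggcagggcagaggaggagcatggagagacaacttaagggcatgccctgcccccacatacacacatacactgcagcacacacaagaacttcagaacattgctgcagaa
Cyp2s1: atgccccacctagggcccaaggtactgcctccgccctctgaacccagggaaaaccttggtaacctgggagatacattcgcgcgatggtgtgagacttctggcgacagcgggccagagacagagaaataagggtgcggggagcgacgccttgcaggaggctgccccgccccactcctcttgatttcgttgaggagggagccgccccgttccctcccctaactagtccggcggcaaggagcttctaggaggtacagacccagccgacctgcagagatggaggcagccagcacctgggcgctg
Cyp4b1: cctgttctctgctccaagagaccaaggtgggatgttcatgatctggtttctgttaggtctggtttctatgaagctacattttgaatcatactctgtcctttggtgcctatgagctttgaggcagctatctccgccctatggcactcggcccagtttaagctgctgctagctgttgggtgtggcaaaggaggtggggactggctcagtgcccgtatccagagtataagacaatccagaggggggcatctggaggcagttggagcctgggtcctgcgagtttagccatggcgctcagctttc
Cyp1a1: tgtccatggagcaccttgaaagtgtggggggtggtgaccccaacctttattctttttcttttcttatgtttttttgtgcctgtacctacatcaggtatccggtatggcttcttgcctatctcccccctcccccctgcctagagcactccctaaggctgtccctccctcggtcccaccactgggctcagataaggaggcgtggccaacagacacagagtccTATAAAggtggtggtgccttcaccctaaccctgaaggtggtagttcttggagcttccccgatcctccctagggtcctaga
Cyp2f2 held 1 NK2 core, which began 192 bases before the start. Cyp1a1 held 1 TATA box, which began 30 bases before the start. The windows of Cyp2s1 and Cyp4b1 held none of these letters.

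Across the family, TATAAA was found in 32 of the 83 windows (38.6%), against 13.6% of all 32851 windows in the table. It was in 7 of the 34 windows of members with enough reads to be tested (20.6%) and in 25 of the 49 windows of the others (51.0%), many of which belong to the Cyp2c subfamily and are related sequences. TNAAGTG was found in 14 member windows (16.9%), against 11.5% of all windows. TNGCGTG was found in 1 member window (1.205%), that of Cyp2c68, against 5.07% of all windows. No overlap between motifs was searched for, and a match is only a description of the letters in these windows.

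The 4 libraries held between 76120696 and 87723745 counts on genes. Il33, the over-expressed gene, had 1723 CPM (read counts scaled to a common library size by the trimmed mean of M-values) in B and 874 in E, against 117 in D and 108 in F, a log2 fold change of 3.53 (SE 0.37). Its adjusted p in edgeR's quasi-likelihood test was 0.999994, and it lay higher in 2 of 2 transgenic libraries. DESeq2 gave it a log2 fold change of 3.53 and called it, and edgeR called it without transgenic replicate 1 or without transgenic replicate 2. The summed level of 4 Y-linked genes was 1.43 CPM in B and 23.2 in E, against 258 in D and 122.6 in F, so the libraries differed in a way that moves with the groups. Its part in the results below was not tested beyond the fit that carries it as a covariate. With 4 libraries that fit can separate the Y-linked level from genotype only weakly. The labels name lung epithelial cells in one field and lung tissue in the series title. Epithelial Epcam stood at 109.8 to 164 CPM and epithelial Cdh1 at 480 to 710 CPM. The alveolar type 2 cell gene Sftpc stood at 20036 to 36323 CPM. Endothelial Pecam1 stood at 824 to 1327 CPM and fibroblast Col3a1 at 453 to 1197 CPM. The libraries therefore held RNA of endothelial and mesenchymal cells as well, and in such bulk RNA fewer cells of a type and less RNA per cell cannot be told apart.

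Most of the P450 reads in these lungs came from a few genes. Counts were found for 78 of the 94 members, and 16 were at 0 in all 4 libraries. Only 22 members had a mean of at least 1 CPM, 11 of at least 10 CPM and 3 of at least 100 CPM. Cyp2f2, Cyp2s1 and Cyp4b1 together held 86.2% of the summed member CPM in B and 79.9% in E, against 83.2% in D and 81.0% in F. The sum over all members was 1805 CPM in B and 1366 in E, against 1480 in D and 1541 in F, so the highest and lowest libraries were both transgenic. A count of 3, taken as the floor, corresponds to 0.0339 to 0.0397 CPM in these libraries and covers counting error only.

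**Figure D1:**
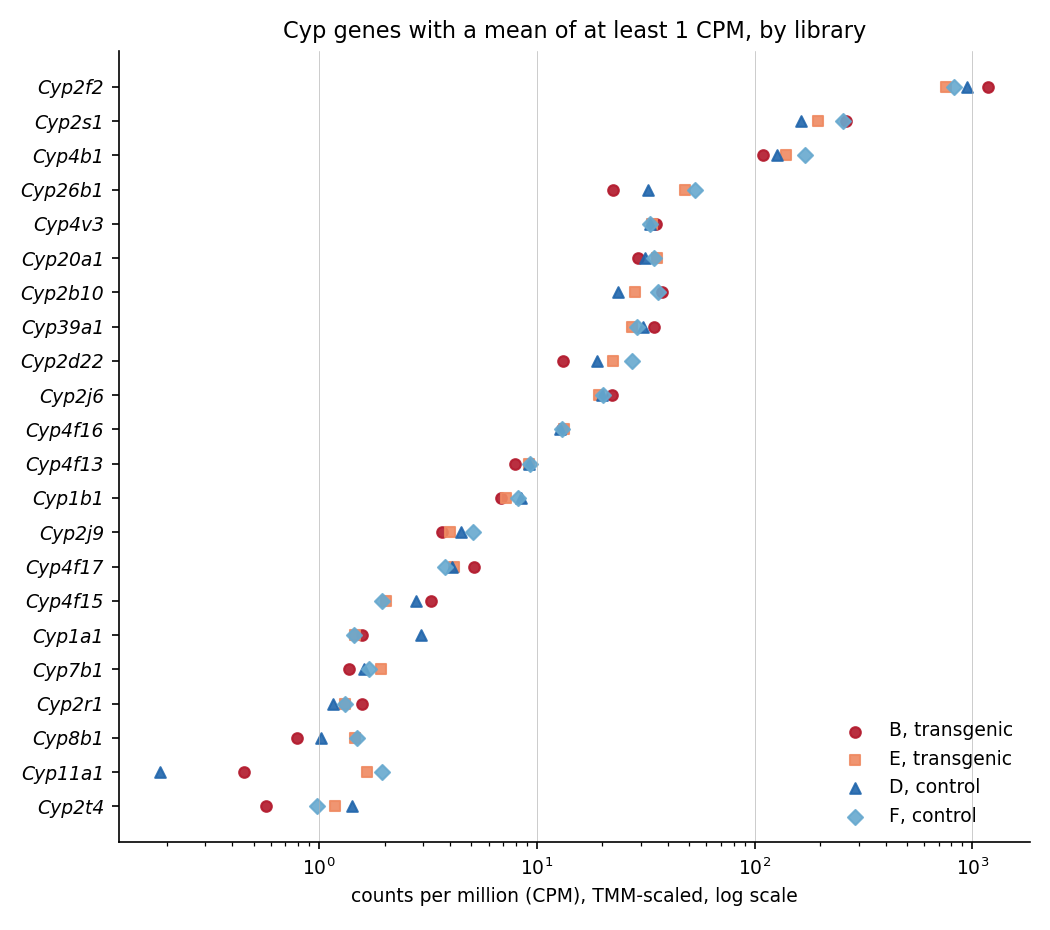
The horizontal axis gives CPM on a log scale and the rows are the members with a mean of at least 1 CPM, with one point for each of the 4 libraries. Cyp2f2 lies between 757 and 1183 CPM, apart from all others, and the points of the transgenic and control libraries overlap for most genes.

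The drug-metabolising families 1 to 3 held 79.9% of the member CPM. Cyp2f2 (ENSMUSG00000052974, chr7:27119909-27133660), the club cell enzyme that activates naphthalene, had 1183 CPM in B and 757 in E, against 942 in D and 823 in F. Library B was the highest and library E the lowest, so the controls lay between the 2 transgenic libraries. The transgenic mean was 970 ± 301 CPM (SD, n = 2) and the control mean 882 ± 83.8 CPM (SD, n = 2), with a log2 fold change of 0.14 (SE 0.25) that lost its sign, at -0.22, without library B. Per kilobase of the gene length in the table, Cyp2f2 averaged 457 CPM, the highest of the members and rank 50 among all genes. Cyp2s1 (ENSMUSG00000040703, chr7:25802475-25816913), an epithelial P450 that can be induced by dioxin, had 263 CPM in B and 196 in E, against 164 in D and 255 in F. Each group held one high and one low library, and the log2 fold change was 0.13 (SE 0.26).

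Cyp2b10, the main target of the constitutive androstane receptor in mouse liver, had 37.5 CPM in B and 28.2 in E, against 23.7 in D and 35.8 in F. Its libraries stood in the same order as those of Cyp2s1, with B and F high and D lowest, and its log2 fold change was 0.14 (SE 0.25). Cyp2d22, of a subfamily that oxidises many drugs, had 13.2 CPM in B and 22.3 in E, against 18.9 in D and 27.4 in F. Library B was lowest and F highest, and the log2 fold change was -0.38 (SE 0.31). Cyp2j6, of a subfamily that makes epoxides from arachidonic acid, had 22.2 CPM in B and 19.3 in E, against 19.9 in D and 20.1 in F. Cyp2j9, of the same subfamily, had 3.68 CPM in B and 3.99 in E, against 4.47 in D and 5.09 in F. Both transgenic libraries of Cyp2j9 lay below both controls, with a log2 fold change of -0.32 (SE 0.19), while the groups of Cyp2j6 overlapped at 0.05 (SE 0.12).

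Cyp1a1 and Cyp1b1, targets of the aryl hydrocarbon receptor, the sensor of dioxins and aromatic hydrocarbons, had mean levels per kilobase of 0.707 CPM and 1.497 CPM, below the 44.4 CPM of Cyp2s1. Cyp1a1 (chr9:57697613-57703822), which oxidises aromatic hydrocarbons, had 1.58 CPM in B and 1.46 in E, against 2.93 in D and 1.44 in F. Library D alone was high. The log2 fold change was -0.53 (SE 0.39), and without D it was 0.07. Cyp1b1 (chr17:79706953-79715041), which oxidises aromatic hydrocarbons and oestrogens, had 6.84 CPM in B and 7.22 in E, against 8.42 in D and 8.22 in F. Both transgenic libraries were below both controls, with means of 7.03 ± 0.267 and 8.32 ± 0.147 CPM (SD, n = 2 each) and a log2 fold change of -0.24 (SE 0.15). The receptor itself, Ahr, had 243 CPM in B and 331 in E, against 291 in D and 333 in F.

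Among the other tested members of these families, Cyp3a13, a member of the Cyp3a drug-oxidising subfamily, had 1.02 CPM in B and 0.688 in E, against 0.633 in D and 0.599 in F. Its groups did not overlap and its log2 fold change was 0.47 (SE 0.33), which fell to 0.16 without B. Cyp2b19, an arachidonic acid epoxygenase known from mouse skin, had 0.662 CPM in B and 0.214 in E, against 0.211 in D and 0.235 in F. Only library B was high: the log2 fold change was 0.96 (SE 0.63), and -0.055 without B. Cyp2t4 had 0.569 CPM in B and 1.19 in E, against 1.41 in D and 0.974 in F, with a log2 fold change of -0.44 (SE 0.44). Over the 19 tested members of families 1 to 3, 9 had a log2 fold change above 0 and 10 below, with a median of -0.01. Cyp2a5, at 0.666 to 1.02 CPM, and Cyp2a4 are near-identical copies: 37.0% and 38.01% of the 50-base words in their transcripts occur in transcripts of other genes, so their split is uncertain.

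Family 4, whose enzymes hydroxylate the end of fatty acid chains, held 13.0% of the member CPM. Cyp4b1 (ENSMUSG00000028713, chr4:115624725-115647723), which activates the lung toxin ipomeanol in rodents, had 109.7 CPM in B and 139 in E, against 126 in D and 170.4 in F. The transgenic mean was 125 ± 21.02 CPM and the control mean 148 ± 31.4 CPM (SD, n = 2 each). B was lowest and F highest, with E and D between them, and the log2 fold change was -0.25 (SE 0.20). Per kilobase, Cyp4b1 averaged 60.4 CPM and ranked above Cyp2s1 at 44.4, although Cyp2s1 drew more reads.

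Cyp4v3, whose human counterpart hydroxylates fatty acids in the eye, had 35.2 CPM in B and 33.9 in E, against 33.2 in both D and F. Its groups did not overlap, but they differed by a log2 fold change of 0.06 (SE 0.09). The Cyp4f genes, of a subfamily that inactivates leukotrienes and other fatty acids, differed among themselves in spread. Cyp4f16 had 13.1 CPM in B and 13.3 in E, against 12.8 in D and 13.0 in F, a log2 fold change of 0.03 (SE 0.12). Cyp4f13 had 7.97 CPM in B and 9.18 in E, against 9.23 in D and 9.30 in F, a log2 fold change of -0.11 (SE 0.15). Library B of Cyp4f13 was low and the other 3 lay close together. Cyp4f17 had 5.12 CPM in B and 4.17 in E, against 4.07 in D and 3.79 in F, a log2 fold change of 0.24 (SE 0.20). Cyp4f15 had 3.27 CPM in B and 2.03 in E, against 2.79 in D and 1.95 in F. Its pattern was B and D high and E and F low, with 1 library of each genotype on each side.

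Among family 4 members below 1 CPM, Cyp4f39, whose human counterpart makes omega-hydroxylated skin lipids, had 0.477 CPM in B and 0.361 in E, against 0.236 in D and 0.247 in F. Both transgenic libraries were above both controls; its log2 fold change of 0.79 (SE 0.38) had the smallest unadjusted p of any member, 0.092 in edgeR's test. Cyp4f18, which oxidises leukotrienes in mouse neutrophils, had 0.384 CPM in B and 1.05 in E, against 0.273 in D and 0.458 in F, a log2 fold change of 0.97 (SE 0.60). Library E was high and the groups overlapped, and without E the log2 fold change was 0.06. Csf3r, a receptor of neutrophils, had 2.85 CPM in B and 3.90 in E, against 1.29 in D and 1.62 in F, and its part in the value of Cyp4f18 was not tested. Cyp4a10, a target of the fatty acid receptor Ppara in mouse liver, had 0.0662 CPM in B and 0.214 in E, against 0.310 in D and 0.282 in F. Its log2 fold change of -1.04 (SE 0.62) was the only one of a tested member with a size of 1 or more, and 29.8% of its 50-base words are shared with other genes. Of the 13 tested members of family 4, 10 had a log2 fold change above 0 and 3 below, with a median of 0.12. The groups did not overlap in 4 of them upwards and 2 downwards, where the shares over all genes tested were 11.9% and 12.0%.

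**Figure D2:**
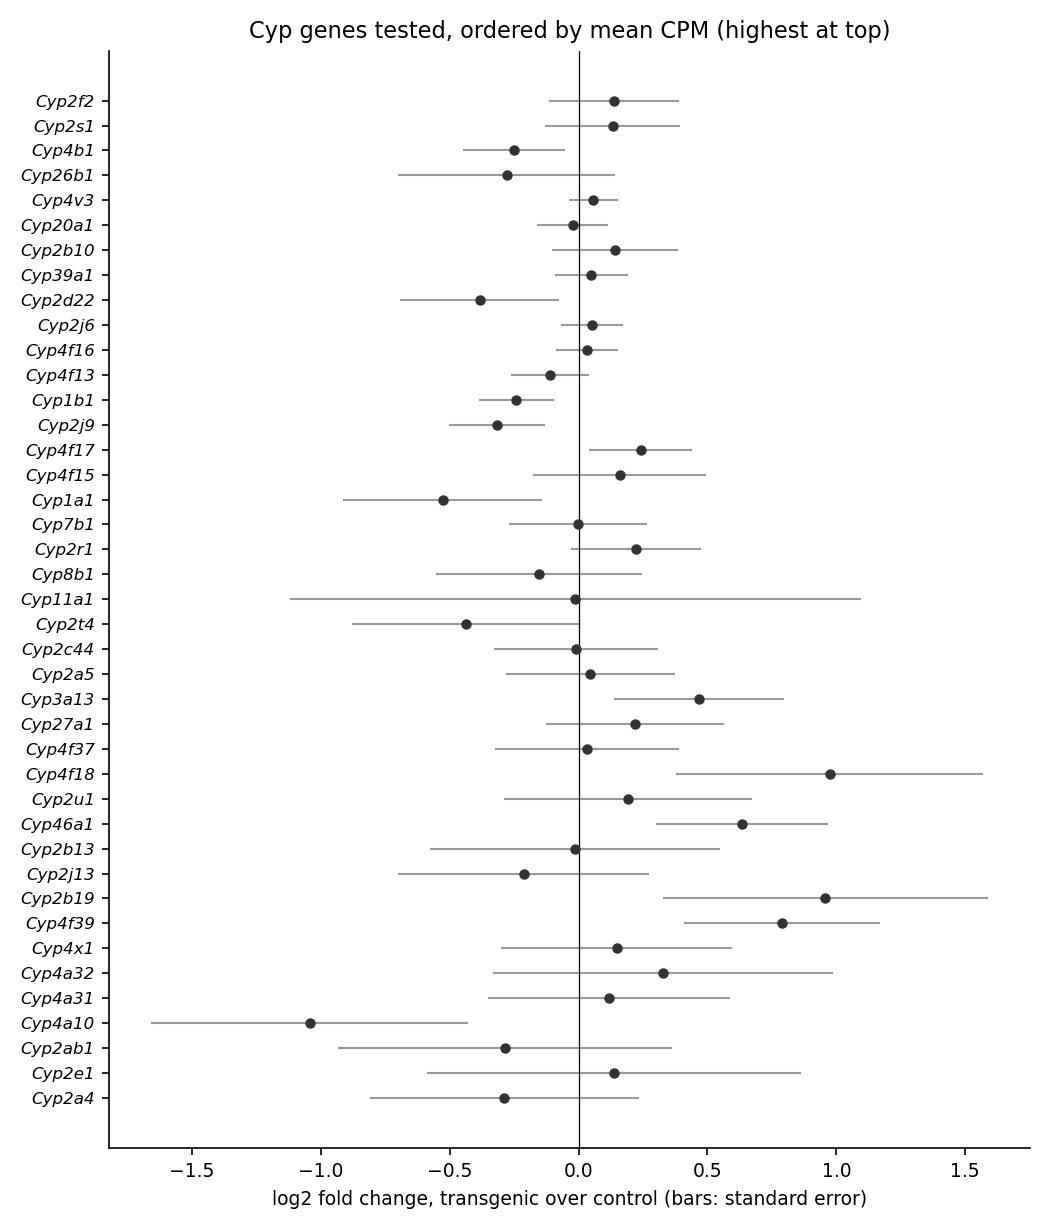
Points give the log2 fold change of transgenic over control libraries for the 41 tested members, with bars of 1 SE, ordered by mean CPM. The values run from -1.04 to 0.97, those of the members with few reads have the widest bars, and Cyp11a1 has the largest SE at 1.11.

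The retinoic acid hydroxylases remove the morphogen retinoic acid. Cyp26b1 (ENSMUSG00000063415, chr6:84571414-84593908) had 22.5 CPM in B and 48.1 in E, against 32.3 in D and 53.3 in F. Library B was lowest and F highest, and the range was 2.37-fold. The transgenic mean was 35.3 ± 18.1 CPM and the control mean 42.8 ± 14.9 CPM (SD, n = 2 each). Its log2 fold change of -0.28 (SE 0.42) became 0.17 without B and -0.94 without E. Cyp26a1 had 1 count in B and 6 in E, against 5 in D and 7 in F and was not tested. Cyp20a1, a P450 with no established substrate, had 29.1 CPM in B and 35.8 in E, against 31.5 in D and 34.3 in F, and its log2 fold change was -0.02 (SE 0.14).

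Of the 6 sterol and bile acid hydroxylases, Cyp39a1 was the highest per kilobase, at a mean level of 9.95 CPM. Cyp39a1, which hydroxylates oxysterols, had 34.4 CPM in B and 27.4 in E, against 30.8 in D and 28.9 in F, a log2 fold change of 0.05 (SE 0.14). Cyp7b1, which also acts on oxysterols, had 1.38 CPM in B and 1.93 in E, against 1.61 in D and 1.70 in F, a log2 fold change of 0.00 (SE 0.27). The controls lay between the transgenic libraries for both genes. Cyp8b1, which in liver is needed to make cholic acid, had 0.794 CPM in B and 1.46 in E, against 1.02 in D and 1.49 in F. Cyp27a1, a mitochondrial sterol hydroxylase, had 0.635 CPM in B and 0.914 in E, against 0.571 in D and 0.763 in F. The groups overlapped for Cyp8b1 and Cyp27a1, with log2 fold changes of -0.15 (SE 0.40) and 0.22 (SE 0.35). Cyp46a1, the cholesterol hydroxylase of brain neurons, had 0.516 CPM in B and 0.496 in E, against 0.323 in D and 0.329 in F. Its groups did not overlap and its log2 fold change was 0.63 (SE 0.33).

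Vitamin D and steroid hormone enzymes were near the floor, apart from Cyp2r1 and Cyp11a1. Cyp2r1, which makes the circulating form of vitamin D, had 1.58 CPM in B and 1.31 in E, against 1.15 in D and 1.31 in F, a log2 fold change of 0.22 (SE 0.25). Cyp27b1, which activates vitamin D, had 7, 10, 8 and 11 counts in B, E, D and F, and Cyp24a1, which degrades it, had 2 counts in E and 0 elsewhere. Cyp19a1, the aromatase that makes oestrogen, was at 0 in all 4 libraries.

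Cyp11a1 (ENSMUSG00000032323, chr9:58006411-58027023), which cleaves the side chain of cholesterol at the start of steroid synthesis, varied most between libraries among the members of at least 1 CPM. It had 34 counts in B and 147 in E, against 15 in D and 166 in F, or 0.450, 1.66, 0.186 and 1.95 CPM. The highest library was 10.5 times the lowest, and each group held one high and one low library. The log2 fold change of -0.01 (SE 1.11) therefore averaged unlike libraries: it was -1.25 without E and 2.50 without F. Of 6 markers of adrenal and gonadal steroid-producing cells, 4 had a mean under 1 CPM, among them Mc2r, which was at 0 in all libraries. Star stood at 2.50 to 2.90 CPM. The summed level of the 6 markers was 4.26 CPM in B and 4.24 in E, against 5.01 in D and 3.89 in F, most of it Star and Insl3. The list did not move as one. Insl3 was highest in D, at 2.16 CPM, where Cyp11a1 was lowest, and Star was lowest in F, where Cyp11a1 was highest. Nr5a1, a regulator of steroid synthesis in the same list, had 6 counts in B and 13 in E, against 2 in D and 11 in F. It alone of the list was high in the same libraries as Cyp11a1, at few counts. The part of such cells in the values of Cyp11a1 was not tested.

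In the comparison of the genotypes, no member passed edgeR's quasi-likelihood test at an adjusted p of 0.05 in either direction. Over all 20872 genes tested the share called was 0% higher and 0% lower, so the test called no gene of the table. DESeq2 called 1 gene, Il33, 0.00479% of those tested, and limma-voom called 0%. At an unadjusted p under 0.05, edgeR took 0.896% of all genes as higher and 0.393% as lower, and 0 of the 41 tested members. Both transgenic libraries lay above both controls in 6 members (14.6%), where the share over all genes was 11.9%. These were Cyp4v3, Cyp4f16, Cyp4f17, Cyp3a13, Cyp46a1 and Cyp4f39. Both lay below in 4 members (9.76%), Cyp4f13, Cyp1b1, Cyp2j9 and Cyp4a10, where the share over all genes was 12.0%. Both shares are near the background of the table.

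The median log2 fold change of the 41 tested members was 0.05, against 0.00 over all genes, and 23 of 41 lay above 0. Among the 22 members of at least 1 CPM the median was -0.01 and 10 lay above 0. The median SE of the members was 0.335, against 0.200 over all genes, so a typical member was measured less precisely than a typical gene. Of the 29 tested members given here with their fit, 14 changed direction when some library was left out. With the Y-linked level as a covariate 20 changed direction, among them Cyp4v3, Cyp4f17, Cyp4f13 and Cyp4a10. That level itself separates the groups, so this fit can hardly tell it from genotype, and no conclusion is drawn from these changes. Cyp4b1, Cyp4f16, Cyp4f18, Cyp1b1, Cyp2j9, Cyp46a1 and Cyp4f39 kept their direction in each of the 12 alternatives that tested them, without passing the adjusted threshold in any. For Cyp4b1 the log2 fold change came near 0 in some of them, at -4.8e-05 with the Y-linked covariate and -0.017 without control replicate 2 (library F).

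The members differed as much between libraries of the same genotype as across genotypes. Over the 22 members of at least 1 CPM, the median size of the log2 ratio was 0.34 between B and E, the 2 transgenic libraries, and 0.19 between D and F, the 2 controls. Across genotypes it was 0.31 for B and D, 0.29 for B and F, 0.23 for E and D, and 0.13 for E and F. The closest pair thus joined a transgenic library with a control, and the widest pair was within the transgenic group. All genes of at least 1 CPM gave 0.21 for B and E, 0.15 for D and F, 0.16 for B and D, 0.21 for B and F, 0.14 for E and D, and 0.08 for E and F. The members' median was the larger in all 6 pairs. Library B was the highest in 9 of the 22 members and the lowest in 10, so for 19 of them it lay at an end of the range; over all genes of at least 1 CPM it was the highest in 36.3% and the lowest in 32.97%.

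**Figure D3:**
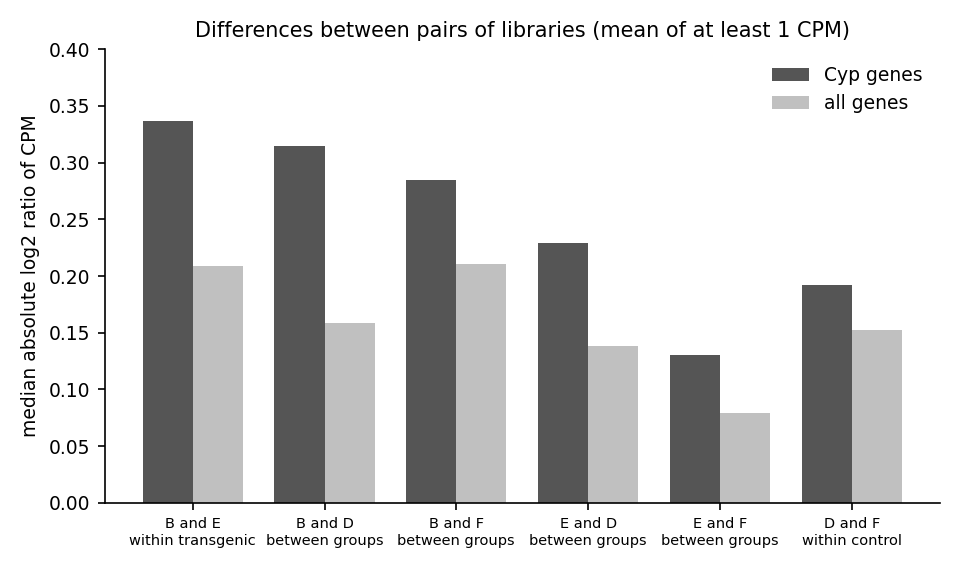
Bars give the median size of the log2 ratio for each pair of libraries, for the 22 members of at least 1 CPM and for all genes of at least 1 CPM. The bar of the members is taller in every pair, and it is lowest for E and F, at 0.13, and highest for B and E, at 0.34.

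The summed CPM of cell type markers is given here beside members with a like order of libraries. The 8 club cell markers, led by Scgb1a1, summed to 10029 CPM in B and 6452 in E, against 8588 in D and 6367 in F. Scgb1a1 alone gave 9197 CPM of the sum in B. The list did not move as one: Scgb3a1, Bpifa1, Bpifb1 and Reg3g were lowest in B, where Bpifa1 had no count, and Scgb3a2 was highest in D. The 8 alveolar type 2 cell markers summed to 57853 CPM in B and 37864 in E, against 47690 in D and 34480 in F. Cyp2f2, Cyp39a1 and Cyp4f15 were likewise highest in B and second highest in D, as Scgb1a1 was. The 10 ciliated cell markers summed to 740 CPM in B and 541 in E, against 531 in D and 687 in F. That list did not move as one either: most of its genes, Foxj1 and Tppp3 among them, were lowest in E, while Dnah9 was lowest in D. Like the sum, Cyp2s1 and Cyp2b10 were high in B and F and lowest in D. Cyp2r1 was highest in B and lowest in D too, with E and F both at 1.31 CPM.

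The 9 endothelial markers summed to 4561 CPM in B and 7145 in E, against 5947 in D and 7794 in F, and the 9 fibroblast and smooth muscle markers to 1525 CPM in B and 3173 in E, against 2278 in D and 3742 in F. Both sums were lowest in B and highest in F, as were Cyp4b1, Cyp26b1, Cyp2d22, Cyp4f13, Cyp2j9 and Cyp8b1. The 7 alveolar macrophage markers summed to 54.4 CPM in B and 131 in E, against 21.3 in D and 79.3 in F. Cyp11a1 had its high values in E and F and its lowest in D, as did this sum. These orders come from 4 libraries, and the part of cell make-up in any P450 value was not tested. Hepatocyte markers, a check for liver RNA, summed to 2.89 to 6.198 CPM and 6 of the 7 had a mean under 1 CPM. Most of the sum was Alb, at 2.53 to 5.04 CPM. Each of the 7 was highest in control library F, and some had counts in F only. The 5 alveolar type 1 cell markers summed to 1560 CPM in B and 940 in E, against 1613 in D and 838 in F, and the 5 pan-epithelial markers to 1625 CPM in B and 1088 in E, against 1359 in D and 1075 in F. The 5 adipocyte markers summed to 0.248 to 1.13 CPM.

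**Figure D4:**
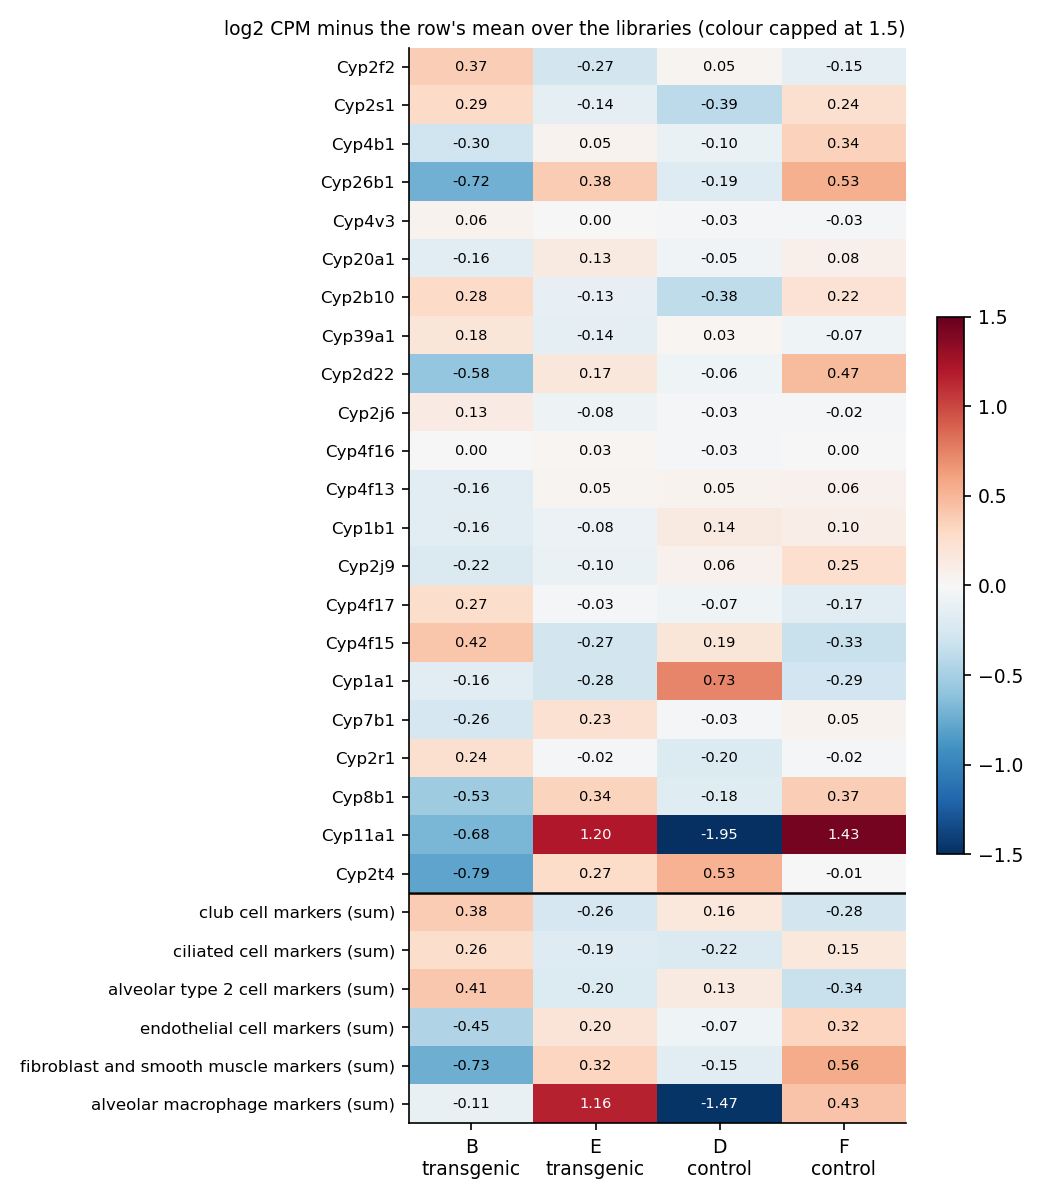
Each row is a member of at least 1 CPM or, below the line, a summed marker list, and each column a library; colour and number give log2 CPM minus the row's mean over the 4 libraries. The rows of Cyp2f2 and of the club cell sum, most of which is Scgb1a1, share their signs in all columns. Cyp39a1, Cyp4f15 and the alveolar type 2 cell sum have the same signs. Cyp11a1 has the widest row, from -1.95 in D to 1.43 in F.

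P450 genes lie in arrays of related copies, and in these lungs most arrays were carried by 1 gene. Members less than 1000000 bases apart were joined, and 8 clusters of at least 3 members held 67 of the 94 members and 14 of the 16 with no count. On chromosome 7 a cluster of 13 members between 25802475 and 27158668, with Cyp2f2, Cyp2s1, Cyp2b10 and the Cyp2a genes, summed to 1486 CPM in B and 984 in E, against 1132 in D and 1117 in F, of which Cyp2f2 made up 78.5%. On chromosome 4 a cluster of 7 between 115106323 and 115647723 was 99.2% Cyp4b1, and one of 8 Cyp2j members between 96027534 and 96664154 was 81.2% Cyp2j6. On chromosome 15 the 8 Cyp2d members between 82370528 and 82794245 were 99.3% Cyp2d22. The Cyp4f cluster of 8 on chromosome 17, between 32468462 and 32947402, was shared more evenly: 4 members had at least 1 CPM, Cyp4f16 held 43.8%, and the sum was 30.5 CPM in B and 29.9 in E, against 29.7 in D and 29.1 in F.

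The liver arrays were all but unread. None of the 14 Cyp2c members between 39007019 and 40187333 on chromosome 19 had enough reads to be tested, and 7 were at 0. None of the 6 Cyp3a members between 145345279 and 146113285 on chromosome 5 was tested, and 4 were at 0. Cyp2e1, the ethanol-oxidising enzyme of liver, had 0.0927 to 0.350 CPM. In all, 53 members were not tested: 16 had no count, and the other 37 reached at most 16 counts in any library and 37 counts in sum. A count of 0 in each of these libraries allows up to 3 counts, and 11 of the 16 members at 0 share at least 10% of their 50-base words with other genes. How reads with several matches were counted is not known here.

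Among the genes that serve P450s or work beside them, none passed the adjusted threshold in edgeR's test. Their counts without overlap between the groups stand against the same shares over all genes, 11.9% upwards and 12.0% downwards. Of 9 matched electron donors, 6 had a log2 fold change above 0 and 3 below, with a median of 0.05. Por, which passes electrons to P450s of the endoplasmic reticulum, had 208 CPM in B and 168 in E, against 186 in D and 177 in F. Both transgenic libraries were above both controls for cytochrome b5 type B (Cyb5b), whose direction turned with the Y-linked covariate, at 270.2 CPM in B and 239.5 in E, against 233 in D and 231 in F, and below them for its reductase Cyb5r3, at 272 CPM in B and 291 in E, against 313 in D and 322 in F. Of the 8 enzymes of haem synthesis, 5 lay above 0 and 3 below, with a median of 0.01 and no gene without overlap. Of 15 tested receptors and regulators, 5 lay above 0 and 10 below, with a median of -0.02.

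The other oxidising and hydrolysing enzymes had 10 of 17 tested genes above 0 and a median log2 fold change of 0.07. The aldehyde oxidases Aox3 and Aox1 lay higher in both transgenic libraries, without passing the adjusted threshold: Aox3 had 49.9 CPM in B and 43.3 in E, against 33.7 in D and 36.2 in F, and Aox1 had 18.5, 16.5, 13.5 and 12.8. Their log2 fold changes were 0.42 and 0.41. The alcohol dehydrogenases Adh1 and Adh7 lay lower in both, also without passing: Adh1 had 13.7 CPM in B and 21.2 in E, against 29.7 in D and 23.7 in F, a log2 fold change of -0.61 that turned with the Y-linked covariate, and Adh7 averaged 0.934 ± 0.179 CPM against 1.58 ± 0.0362 CPM (SD, n = 2 each). Of 20 tested conjugation enzymes, 13 lay above 0, none had both transgenic libraries above both controls and 4 had both below, against shares of 11.9% and 12.0% over all genes. Those 4 included the sulfotransferase Sult1d1, with 0.318 CPM in B and 0.587 in E, against 0.744 in D and 0.974 in F, and the glutathione enzyme Mgst3, with 22.5, 23.2, 26.2 and 27.3 CPM.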

How the data were processed

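Polyadenylated RNA was extracted with Qiagen's kit, per the labels' protocols. The submitters' processing notes name TopHat2 (version 2), featureCounts (version 1), Bowtie (version 1) and the mm10 build (GRCm38). They do not say which annotation or strand setting was used, or how multiply matching reads were counted. The authors deposited whole-number read counts per gene, not normalized, and RPKM values beside them. The deposited RPKM was used only to work out the totals behind it, of which the counts were 80.3% to 82.7%.

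All 43346 genes were scaled by TMM and 20872 passed filterByExpr (minimum count 10, minimum total 15). Transgenic and control libraries were compared with edgeR 4.0.16 (R 4.3.3), by its quasi-likelihood test with no covariate and Benjamini-Hochberg adjustment over all genes tested, at 0.05. The SE is the size of the log2 fold change over the square root of F. No libraries agreed within sampling noise (chi-square per gene of 18.1 or more). Alternatives used limma 3.58.1, DESeq2 1.42.0, other filters and scalings, a Y-linked covariate and leaving out each library. The script was tested on simulated data. Shared 50-base words were counted in GENCODE M21 transcripts, which matched all 94 members, and a word counts as shared where another gene's transcript holds it. Promoters are RefSeq windows.

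The members and lists were chosen with earlier results of these data known. Named members were the 20 highest by mean CPM, those of at least 1 CPM without overlap, the 5 with the smallest p, the 5 most variable between libraries, and 10 chosen by role. From each pathway list, up to 4 genes with the smallest p could be named. From each marker list, only the genes with the highest mean CPM could be named by rule. Por, Ahr, Cyp2a4, Cyp2a5, Cyp2b19, Cyp2e1, Cyp3a13 and Cyp4f18 were added after their values were seen. Csf3r, Epcam, Mc2r, Scgb3a1, Bpifa1, Bpifb1, Reg3g, Cyp4b1-ps1 and Cyp4b1-ps2 were also named outside these rules. Fdx2 was not matched. The summed level of 1 marker list is not reported here.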

Additional observations from a re-analysis of the deposited data

How the results depend on the processing

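No paired analysis was possible because the labels give no replicate numbers, and the numbers used here only name the libraries. No member passed the adjusted threshold in any of the 12 alternatives. Members at an unadjusted p under 0.05 are not counted for the fit with the Y-linked covariate, because the share over all genes is not given for it. Fits without a library leave 1 library in a group, so unadjusted p-values of members are not printed for them. Without a filter on low counts 78 members entered, 10 lay higher without overlap and 12 lower. These were 12.8% and 15.4% of those members, against 10.97% and 12.9% of all genes tested. A stricter filter left 22 members, 3 of them higher and 3 lower. Each count was 13.6% of those members, against 10.2% higher and 11.8% lower over all genes tested. Leaving out 1 library at a time gave 11 to 18 members higher and 8 to 17 lower, since fewer libraries have to be separated (24.4% to 41.9% and 18.6% to 38.6% of those tested, against 27.3% to 35.7% and 27.1% to 38.6% of all genes), and medians of -0.23 to 0.13. Of 341 log2 fold changes of 29 named members, 297 kept their direction and 44 reversed, 22 of them with a library left out. The cause was not tested.

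With the Y-linked covariate the log2 fold change was -0.58 for Cyp2f2, -0.54 for Cyp2s1, 0.63 for Cyp26b1, -0.0023 for Cyp4v3, 0.27 for Cyp20a1, -0.51 for Cyp2b10, -0.31 for Cyp39a1, 0.26 for Cyp2d22, -0.19 for Cyp2j6, 0.12 for Cyp4f13, -0.073 for Cyp4f17, -0.52 for Cyp4f15, 0.51 for Cyp7b1, -0.14 for Cyp2r1, 0.59 for Cyp8b1, 1.06 for Cyp11a1, 0.85 for Cyp2t4, 0.62 for Cyp4a10, -0.18 for Cyp3a13, -1.14 for Cyp2b19, -0.29 for Por, -0.063 for Cyb5b, 0.18 for Adh1 and 0.38 for Cyp4b1-ps1. These values are not corrected estimates, since the Y-linked level separates the groups and the fit can hardly tell it from genotype. Cyp7b1 was 0.00065 with the newer quasi-likelihood method, and Cyp11a1 was 0.52 with limma-voom. Leaving out a library gave -0.22 to 0.41 for Cyp2f2, -0.15 to 0.48 for Cyp2s1, -0.94 to 0.17 for Cyp26b1, -0.19 to 0.12 for Cyp20a1, -0.12 to 0.47 for Cyp2b10, -0.12 to 0.19 for Cyp39a1, -0.050 to 0.14 for Cyp2j6, -0.22 to 0.45 for Cyp4f15, -0.95 to 0.070 for Cyp1a1, -0.28 to 0.22 for Cyp7b1, -0.67 to 0.22 for Cyp8b1, -1.25 to 2.50 for Cyp11a1, -0.079 to 0.45 for Cyp27a1, -0.055 to 1.55 for Cyp2b19, -0.11 to 0.18 for Por and -0.79 to 0.17 for Cyp4b1-ps1. Where an arm held 1 library, it was assumed to vary like the other group. Of 227 medians of the 19 gene lists, 30 moved by more than the spread between libraries, 13 of them with the Y-linked covariate.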

Other observations

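The table held 22 further Cyp names that the naming rule left out. Of these 22, 15 were named as pseudogenes. Over all 22, 12 had no count and 3 were tested. Cyp51, the sterol demethylase of cholesterol synthesis, had 60.7 CPM in B and 49.7 in E, against 56.0 in D and 49.98 in F, so it was high in B and D. The pseudogene Cyp4b1-ps1 had 1.24 CPM in B and 2.27 in E, against 1.56 in D and 2.72 in F, a log2 fold change of -0.28 (SE 0.42) that was 0.083 without B. Cyp4b1-ps2 had 1.02 CPM in B and 1.47 in E, against 1.43 in D and 2.04 in F, a log2 fold change of -0.48 (SE 0.32). Both were lowest in B and highest in F, as was Cyp4b1, and 8.26% of the 50-base words of Cyp4b1 transcripts occur in transcripts of other genes.

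A pair of P450s of prostanoid synthesis bear other names. Prostacyclin synthase (Ptgis), an enzyme of endothelium and smooth muscle, had 18.5 CPM in B and 28.0 in E, against 22.9 in D and 32.997 in F. Its libraries stood in the order of the endothelial and fibroblast marker sums. Thromboxane synthase (Tbxas1), an enzyme of platelets and macrophages, had 4.71 CPM in B and 8.98 in E, against 4.75 in D and 7.47 in F. The groups overlapped for both genes, and neither passed the adjusted threshold in edgeR's test.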
